A study of Mus musculus with 11 samples.

Results

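The variable, diversity and joining segments of the T-cell receptor beta locus were followed across RNA sequencing libraries of mouse CD8 T cells. The members were all rows of the deposited gene count table whose symbol begins with Trbv, Trbd or Trbj: 51 of 52636 rows, of which 35 were V, 2 were D and 14 were J segments. Of the 35 V rows, 22 were annotated as functional V genes and 13 as pseudogenes, and 8 of the pseudogenes had no count in any library. Of the 43 rows with a count, 38 passed the filter on low counts and were tested (22 V, 14 J and 2 D). The unit of comparison was the share of a segment, its percentage of all V counts or of all J counts in the same library.

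The libraries came from spleen CD8 T cells of C57BL/6 mice in 3 groups: 4 libraries of CD45RBhi NP396+ memory cells, 4 of CD45RBlo NP396+ memory cells and 3 of naive CD44lo cells. The labels state intraperitoneal infection with 200000 pfu of LCMV Armstrong, a strain of lymphocytic choriomeningitis virus that is cleared after an acute infection. Memory cells were sorted on days 42 to 45 with a tetramer that binds T cells specific for the NP396 peptide of the viral nucleoprotein, and split by their surface level of CD45RB, a form of the phosphatase CD45. The labels of the naive libraries repeat the infection text and add an entry of 6 to 8 weeks, whose meaning is not stated. Whether replicate libraries stem from different mice is not stated, so the p-values below reflect the spread among libraries, some of which may be technical.

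Each developing T cell joins 1 V, 1 D and 1 J segment of the beta locus into a single exon, with bases lost and added at the joints, and passes that exon to all its descendants. The V segment encodes the first 2 loops that contact peptide and MHC, while the third loop, CDR3, spans the end of V, the D segment and the start of J. A population founded by few cells therefore carries few segments, and T cells that recognise the same peptide often share V segments. In bulk RNA, fewer cells that use a segment and less receptor RNA per cell cannot be told apart.

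The ends of the V segments that carried the results are shown because CDR3 begins there. Each line gives the last 75 bases of the germline segment from the GENCODE M21 transcripts on GRCm38, 5′ to 3′, and the capitals mark the codon of the conserved cysteine at which CDR3 begins.
Trbv13-2 (chr6:41121758-41121832, plus strand): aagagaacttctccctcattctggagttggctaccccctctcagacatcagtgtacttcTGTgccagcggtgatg
Trbv13-3 (chr6:41130511-41130585, plus strand): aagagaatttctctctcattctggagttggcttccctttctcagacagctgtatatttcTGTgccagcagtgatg
Trbv19 (chr6:41178974-41179048, plus strand): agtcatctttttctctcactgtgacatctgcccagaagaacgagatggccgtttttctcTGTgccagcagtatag
Trbv17 (chr6:41163482-41163556, plus strand): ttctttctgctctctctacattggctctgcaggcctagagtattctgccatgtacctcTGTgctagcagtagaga
Trbv20 (chr6:41188903-41188977, plus strand): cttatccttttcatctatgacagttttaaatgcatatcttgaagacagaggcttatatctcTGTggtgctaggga
Trbv14 (chr6:41135542-41135616, plus strand): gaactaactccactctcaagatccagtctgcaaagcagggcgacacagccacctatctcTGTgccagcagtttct
Trbv16 (chr6:41152156-41152230, plus strand): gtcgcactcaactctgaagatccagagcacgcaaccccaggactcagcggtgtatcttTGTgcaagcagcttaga
Trbv12-2 (chr6:41119290-41119364, plus strand): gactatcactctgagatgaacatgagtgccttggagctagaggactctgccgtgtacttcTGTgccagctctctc

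Trbv13-2 and Trbv13-3 were 90.6% identical over the aligned exons and shared 1 exact window of 50 bases, so reads from short stretches of this pair could be assigned to either. Trbv12-1 and Trbv12-2 were 88.3% identical and shared no such window. Trbv12-2 and the pseudogene Trbv12-3 were 82.5% identical and shared 4 such windows, so the same holds for this pair. Trbv12-3 had 0 to 2 counts in a library. How reads that match several genes were counted is not given in the sources used here. In the older RefSeq nomenclature Trbv13-2 is Tcrb-V8.2, Trbv13-3 is Tcrb-V8.1, Trbv19 is Tcrb-V6, Trbv17 is Tcrb-V9 and Trbv20 is Tcrb-V15.

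Library totals ran from 18.0 to 23.2 M counts, and each library held 11625 to 23470 V counts, 585 to 1674 J counts and 38 to 100 D counts. The widest 95% Wilson interval of a share reached 0.783 percentage points to each side for V and 2.88 points for J, for counting error only. The 6 markers of CD8 T cells summed to 6958 to 8341 CPM (counts relative to the library total) in CD45RBhi, 6757 to 8072 CPM in CD45RBlo and 7494 to 8146 CPM in naive libraries. Cd4 had 0 to 3, 0 to 6 and 0 to 9 counts in a CD45RBhi, CD45RBlo and naive library, so the defining marker of the other large T-cell class was near 0. The 4 gamma-delta constant genes summed to 30.8 to 63.6 CPM in CD45RBhi, 41.1 to 71.5 CPM in CD45RBlo and 6.82 to 8.43 CPM in naive libraries; among them Trdc, the delta chain constant gene, went the other way, with 6 to 29, 6 to 16 and 114 to 145 counts. The 5 B cell markers summed to 174 to 485 CPM in CD45RBhi, 164 to 413 CPM in CD45RBlo and 1200 to 1347 CPM in naive libraries, and 3 erythroid markers reached 1.06, 14.9 and 388 CPM at most. The 4 myeloid markers summed to 32.5 to 41.0, 29.4 to 43.1 and 26.7 to 47.3 CPM in CD45RBhi, CD45RBlo and naive libraries. Among them Cd68 and Itgam were higher in memory libraries, and Lyz2 and Csf1r in naive ones. The NKT cell marker Zbtb16 had 0 to 3, 0 to 10 and 0 counts in a library of those groups. Whether these RNAs came from such cells, and what part such cells had in the segment shares, was not tested.

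Memory libraries drew on a narrower set of V segments than naive libraries. All memory libraries held NP396+ cells and the naive ones CD44lo cells. In this and every later comparison with naive libraries, memory state and peptide specificity cannot be told apart. The effective number of V segments, which is the number of equally used segments that would give the same Shannon entropy, was 9.15, 8.55, 7.32 and 9.83 in CD45RBhi libraries 1 to 4. It was 8.17, 8.41, 7.55 and 10.3 in CD45RBlo libraries 1 to 4, and 15.8, 15.6 and 15.7 in naive libraries 1 to 3. Every memory library lay below every naive library, and the CD45RBhi and CD45RBlo ranges overlapped. The group means were 8.71 ± 1.06 in CD45RBhi (SD, n = 4), 8.60 ± 1.18 in CD45RBlo (n = 4) and 15.7 ± 0.115 in naive libraries (n = 3). The 3 most used V segments of a library held 49.3% to 67.6% of its V counts in CD45RBhi, 51.7% to 65.0% in CD45RBlo and 31.4% to 31.5% in naive libraries.

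**Figure D1:**
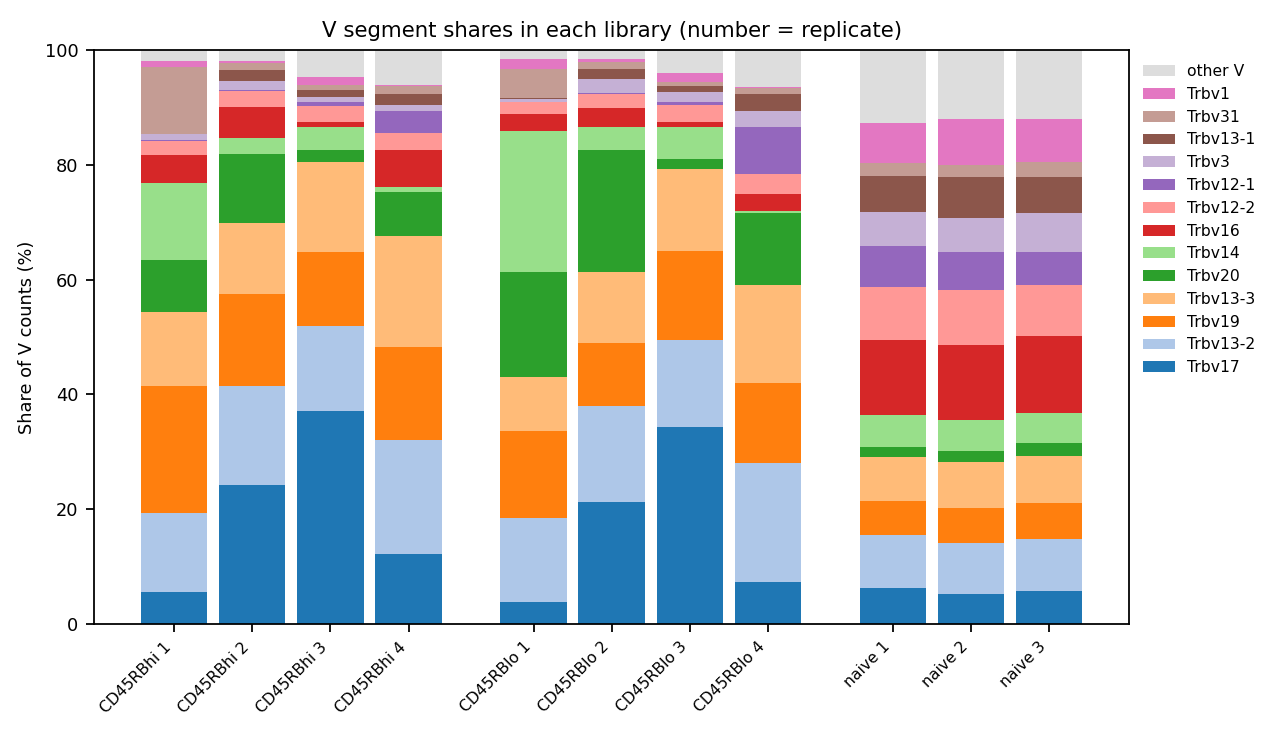
Share of V counts (%, stacked) held by the 13 V segments that reached 5% in any library, with all others in grey, for each CD45RBhi, CD45RBlo and naive library. The 3 naive libraries look alike, while the memory libraries differ from each other, and Trbv17 reaches 37.1% in CD45RBhi 3 and 34.4% in CD45RBlo 3.

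The naive libraries were close copies of each other in V usage. Trbv16 led in all of them, with 13.0%, 13.1% and 13.5% of V counts. Trbv12-2, Trbv13-2 and Trbv13-3 followed at 7.62% to 9.57%. The distance between 2 libraries, taken as the summed absolute difference of their V shares divided by 2, was 3.22% to 3.83% for the 3 naive pairs. It was 41.7% to 54.9% for the 24 pairs of a memory with a naive library.

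In the memory libraries the leading segment varied. It was Trbv19 at 22.1% in CD45RBhi 1, Trbv17 at 24.2% and 37.1% in CD45RBhi 2 and 3, and Trbv13-2 at 19.8% in CD45RBhi 4. It was Trbv14 at 24.6% in CD45RBlo 1 and Trbv20 at 21.3% in CD45RBlo 2. It was Trbv17 at 34.4% in CD45RBlo 3 and Trbv13-2 at 20.7% in CD45RBlo 4. In CD45RBlo 2, Trbv17 was nearly level with Trbv20, with 4063 against 4068 counts. Per base of exon the same segments led, except in CD45RBhi 1, where Trbv13-2 (16.0%) stood above Trbv19 (15.4%).

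Against naive cells, 4 V segments rose and 9 fell in CD45RBhi, and 4 rose and 10 fell in CD45RBlo, of 22 V rows tested. Over all genes, 22.3% rose and 19.1% fell in CD45RBhi, and 22.4% rose and 19.8% fell in CD45RBlo. The test was edgeR's quasi-likelihood F test on shares with Benjamini-Hochberg adjustment over all 13735 genes tested and a threshold of 0.05, and log2 ratios of shares are given ± SE. Of all genes tested, 41.4% were called in CD45RBhi against naive and 42.2% in CD45RBlo against naive. V segments were called at 13 and 14 of 22 in these comparisons, which share the naive libraries. The median log2 ratio over the 22 V segments was -1.66 in CD45RBhi and -1.63 in CD45RBlo, beside -0.00692 and -0.00765 over all genes tested. These are unlike measures, because genes other than V and J segments were compared by level. Shares add up to a fixed total, so a rise of some segments lowers the shares of others. By level, with TMM scaling for every row, the V medians were -1.38 in CD45RBhi and -1.52 in CD45RBlo. By level, 4 V segments rose and 7 fell in CD45RBhi, and 4 rose and 9 fell in CD45RBlo. The median biological coefficient of variation was 57.6% for V segments, 20.8% for J segments and 16.8% for all genes.

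Trbv19, Trbv13-2 and Trbv13-3 were higher in all 8 memory libraries than in any naive library, and no other V segment was. The 8 libraries carry 4 numbers, and same-numbered ones resembled each other, so they are not 8 independent cases. The share of all genes higher in all 8 was not counted. Trbv19 held 22.1%, 16.0%, 12.9% and 16.2% of V counts in CD45RBhi libraries 1 to 4, 15.2%, 11.1%, 15.6% and 14.0% in CD45RBlo libraries 1 to 4, and 6.09%, 6.08% and 6.34% in naive libraries. The log2 ratio to naive was 1.45 ± 0.167 in CD45RBhi (edgeR adjusted p = 1.85e-05) and 1.18 ± 0.166 in CD45RBlo (adjusted p = 8.9e-05). Trbv13-2 held 13.8%, 17.2%, 14.9% and 19.8% in CD45RBhi, 14.7%, 16.6%, 15.1% and 20.7% in CD45RBlo, and 9.20%, 8.86% and 9.13% in naive libraries. This was the steadiest of the segments that rose, with a log2 ratio of 0.86 ± 0.141 in CD45RBhi (adjusted p = 0.000341) and 0.89 ± 0.141 in CD45RBlo (adjusted p = 0.000243). Trbv13-3 held 13.0%, 12.4%, 15.7% and 19.3% in CD45RBhi, 9.46%, 12.4%, 14.2% and 17.0% in CD45RBlo, and 7.62%, 8.08% and 8.14% in naive libraries. Its log2 ratio was 0.93 ± 0.189 in CD45RBhi (adjusted p = 0.00167) and 0.74 ± 0.188 in CD45RBlo (adjusted p = 0.00661). Together these 3 segments took 43.5% to 55.4% of V counts in CD45RBhi, 39.3% to 51.7% in CD45RBlo and 22.9% to 23.6% in naive libraries.

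Trbv20 rose against naive cells as well, yet by library it was uneven. It held 9.02%, 12.1%, 1.99% and 7.80% in CD45RBhi, 18.3%, 21.3%, 1.73% and 12.6% in CD45RBlo, and 1.73%, 1.90% and 2.25% in naive libraries. Both libraries numbered 3 lay close to the naive ones, so the groups overlapped. The log2 ratio was 1.98 ± 0.698 in CD45RBhi (adjusted p = 0.0375) and 2.78 ± 0.719 in CD45RBlo (adjusted p = 0.0074). The call in CD45RBhi was lost without CD45RBhi 1, 2 or 4 or any naive library (adjusted p = 0.0606 to 0.11), while that in CD45RBlo kept its side of the threshold in each such fit.

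Trbv17 reached the highest share of any segment and spread widely. It held 5.51%, 24.2%, 37.1% and 12.2% in CD45RBhi, 3.72%, 21.2%, 34.4% and 7.27% in CD45RBlo, and 6.20%, 5.26% and 5.65% in naive libraries. Libraries numbered 2, 3 and 4 lay above all naive libraries in both memory sorts, and CD45RBlo 1 lay below them. The log2 ratio to naive did not pass the test in CD45RBhi (1.79 ± 0.708, adjusted p = 0.0593) or in CD45RBlo (1.55 ± 0.702, adjusted p = 0.096).

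**Figure D2:**
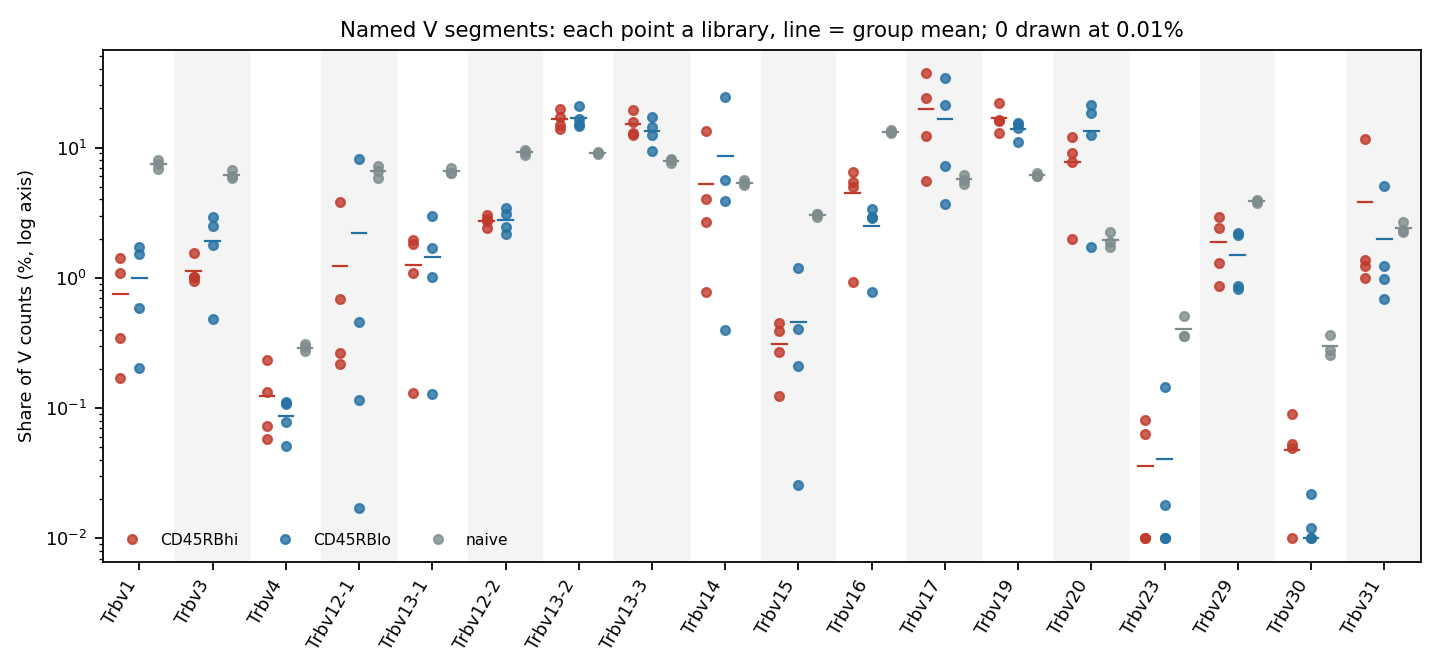
Share of V counts (%, log axis) of the 18 V segments that reached 5% in any library or passed a test, by group, with each point a library, lines for group means and shares of 0 drawn at 0.01%. Trbv13-2, Trbv13-3 and Trbv19 lie above the naive points in all 8 memory libraries, whereas Trbv17, Trbv14 and Trbv12-1 spread over a wide range within both memory groups.

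The segments that fell included Trbv16, which led in naive libraries, and Trbv12-2. Trbv16 held 4.94%, 5.45%, 0.921% and 6.45% in CD45RBhi, 2.86%, 3.37%, 0.772% and 2.93% in CD45RBlo, and 13.0%, 13.1% and 13.5% in naive libraries. Its log2 ratio was -1.57 ± 0.514 in CD45RBhi (adjusted p = 0.0264) and -2.41 ± 0.528 in CD45RBlo (adjusted p = 0.00256). The call in CD45RBhi was lost when any naive library was left out (adjusted p = 0.0584 to 0.0636). Trbv12-2 varied little, with 2.40% to 3.04% in CD45RBhi, 2.18% to 3.44% in CD45RBlo and 8.73% to 9.57% in naive libraries. It fell by 1.74 on the log2 scale in CD45RBhi (SE 0.146, adjusted p = 9.52e-07) and by 1.71 in CD45RBlo (SE 0.146, adjusted p = 1.03e-06).

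Trbv1 fell further, to 0.170% to 1.42% in CD45RBhi and 0.205% to 1.71% in CD45RBlo, against 6.88% to 7.98% in naive libraries. Its log2 ratio was -3.30 ± 0.652 in CD45RBhi (adjusted p = 0.00132) and -2.90 ± 0.642 in CD45RBlo (adjusted p = 0.00278). Trbv15 held 0.124% to 0.447% in CD45RBhi, 0.0258% to 1.18% in CD45RBlo and 2.94% to 3.10% in naive libraries, with log2 ratios of -3.29 and -2.73. Trbv3 (-2.44 and -1.68), Trbv13-1 (-2.38 and -2.16), Trbv30 (-2.56 and -5.05), Trbv23 (-3.33 and -3.14) and Trbv4 (-1.24 and -1.74) also passed in both comparisons, given for CD45RBhi first and CD45RBlo second. Trbv29 passed in CD45RBlo (-1.35, adjusted p = 0.0193) and missed in CD45RBhi (-1.04, adjusted p = 0.061). The difference between the 2 memory groups in Trbv29 was 0.32 ± 0.392 (adjusted p = 0.859).

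Several of these calls were lost when a single library was left out, with the sign kept in each such fit. That of Trbv4 in CD45RBhi was lost without CD45RBhi 1, 2 or 3 or any naive library (adjusted p = 0.0655 to 0.0983), and the Trbv4 row overlaps a long noncoding RNA on the same strand, 5830405F06Rik. That of Trbv13-1 was lost in CD45RBhi without naive 2 (0.0505) and in CD45RBlo without CD45RBlo 3 or any naive library (0.062 to 0.0745). That of Trbv23 was lost in CD45RBhi without naive 1 (0.0677) and in CD45RBlo without CD45RBlo 3 or 4 or any naive library (0.0555 to 0.0818). Trbv29 in CD45RBlo was at adjusted p = 0.0501 without naive 1. Trbv4, Trbv23 and Trbv30 are low in every library, at 0.509% or less of V counts. Trbv4 had 8 to 33 counts in CD45RBhi, 7 to 18 in CD45RBlo and 40 to 42 in naive libraries. Trbv23 had no count in CD45RBhi 1 and 4 and in CD45RBlo 1 and 4, and Trbv30 had none in CD45RBhi 1 and in CD45RBlo 1 and 2.

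Groups did not overlap for 18 of 22 V segments between CD45RBhi and naive (3 higher, 15 lower) and for 16 of 22 between CD45RBlo and naive (3 higher, 13 lower). Over all genes tested, 47.4% and 49.6% did not overlap. In all, 13 V segments lay below every naive library in all 8 memory libraries. The share of all genes that did so was not counted, and the percentages above are for each memory group in either direction. Trbv2, Trbv24 and Trbv26 were among these 13 V segments without passing the test in either comparison, and they are named here after their values were seen. Trbv2 held 0.170% to 2.11% in CD45RBhi, 0.110% to 2.39% in CD45RBlo and 2.56% to 2.95% in naive libraries.

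Some high shares in memory belonged to a single replicate number. Trbv14 held 13.4% in CD45RBhi 1 and 24.6% in CD45RBlo 1, but 0.773% to 4.05% in the other CD45RBhi, 0.394% to 5.61% in the other CD45RBlo and 5.18% to 5.62% in naive libraries. Trbv31 held 11.7% in CD45RBhi 1 and 5.09% in CD45RBlo 1, but 0.990% to 1.36% and 0.682% to 1.24% in the others of those groups and 2.24% to 2.70% in naive libraries. Trbv12-1 held 3.80% in CD45RBhi 4 and 8.22% in CD45RBlo 4, but 0.219% to 0.683% and 0.0172% to 0.461% in the others of those groups and 5.86% to 7.22% in naive libraries. None of these 3 segments passed the test against naive in either memory group, with adjusted p between 0.154 (Trbv12-1 in CD45RBhi) and 0.976 (Trbv14 in CD45RBhi).

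Same-numbered CD45RBhi and CD45RBlo libraries resembled each other in V usage. The distance between them was 22.3%, 11.7%, 6.08% and 14.4% for numbers 1 to 4, a mean of 13.6% ± 6.73 (SD, 4 pairs). For the 12 differently numbered CD45RBhi to CD45RBlo pairs it was 19.2% to 45.7%, with a mean of 32.3%. Within a sort, distances were 19.1% to 40.3% among CD45RBhi and 25.8% to 42.5% among CD45RBlo libraries. For 8 of 8 memory libraries the nearest library of the other sort carried its own number. Same-numbered pairs were still farther apart than the naive pairs.

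The labels do not say what a replicate number stands for. Across the V rows tested, deviations from the group mean correlated at 0.87 to 0.92 between same-numbered CD45RBhi and CD45RBlo libraries and at -0.66 to 0.11 between differently numbered ones. Across all genes without the segment rows these values were 0.21 to 0.58 and -0.45 to 0.04. These are descriptions across genes, which are not independent replicates. Deviations from a group mean cancel out within the group, so high same-numbered values push the differently numbered ones to negative values.

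**Figure D3:**
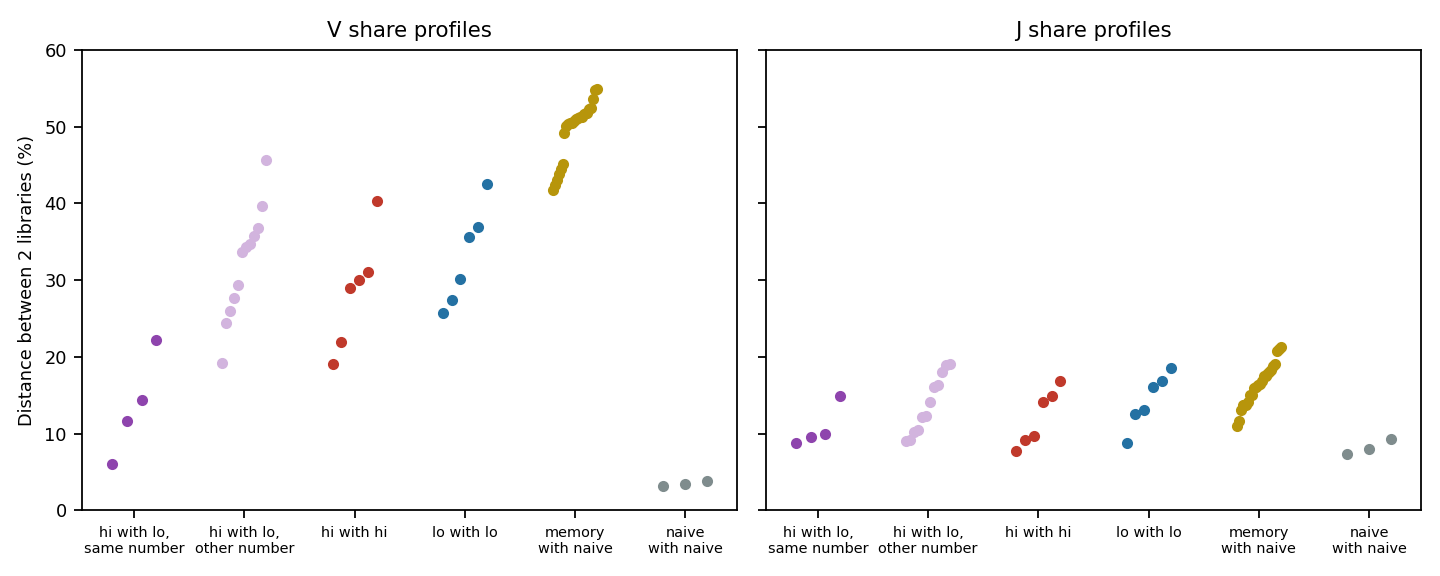
Distance between the share profiles of 2 libraries (%), for V segments on the left and J segments on the right, by kind of pair, with each point a pair, sorted from low to high within its kind. For V, same-numbered CD45RBhi (hi) and CD45RBlo (lo) libraries lie at 6.08% to 22.3% and pairs with other numbers at 19.2% to 45.7%; for J, same-numbered pairs (8.82% to 14.9%) and pairs with other numbers (9.08% to 19.0%) overlap.

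Between CD45RBhi and CD45RBlo, none of 38 segments passed edgeR's test without pairing (0.124% of all genes did) and DESeq2 also called 0, while 1 segment had an unadjusted p under 0.05 (8.98% of all genes did). That segment was Trbv30 (edgeR adjusted p = 0.446). No segment separated the groups, whereas 4.98% of all genes did not overlap. When the number was entered as a block in a fit restricted to memory, 3 of 35 segments passed, beside 5.56% of all genes. Of these 2 were higher in CD45RBhi (2.49% of all genes were) and 1 was lower (3.07%), and 10 of 35 had an unadjusted p under 0.05, beside 21.5% of all genes. The median coefficient of variation in the paired fit was 15.2% for V segments, 20.8% for J segments and 9.93% for all genes.

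Trbv16 was higher in CD45RBhi in 4 of 4 pairs, by 2.07, 2.07, 0.149 and 3.52 percentage points for numbers 1 to 4. The 95% interval of the difference, for counting error only, included 0 in pair 3 alone (-0.0428 to 0.34). The paired log2 ratio was 0.75 ± 0.122 (adjusted p = 0.00491), against 0.84 ± 0.491 (adjusted p = 0.652) without pairing. It passed without any single number (adjusted p = 0.00819 to 0.0297).

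Trbv17 was higher in CD45RBhi in 4 of 4 pairs as well, by 1.80, 2.96, 2.71 and 4.90 points. Its paired log2 ratio was 0.38 ± 0.0936 (adjusted p = 0.0358), against 0.24 ± 0.615 (adjusted p = 0.934) without pairing. The call was lost without number 1 (0.121), 3 (0.0596) or 4 (0.141). Without pairing, the sign turned when CD45RBhi 3 (-0.25), CD45RBlo 1 (-0.08) or CD45RBlo 4 (-0.00268) was left out.

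Trbv20 shares differed by -9.30, -9.19, 0.261 and -4.77 points, CD45RBhi minus CD45RBlo, so CD45RBhi was the lower in 3 of 4 pairs. Pair 3 had 1.99% in CD45RBhi and 1.73% in CD45RBlo. The paired log2 ratio was -0.64 ± 0.138 (adjusted p = 0.0197), against -0.80 ± 0.594 (adjusted p = 0.739) without pairing, and the call was lost without number 1 (0.105) or 4 (0.0712).

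Other segments differed within pairs without passing the paired test. Trbv19 differed by 6.90, 4.90, -2.63 and 2.22 points, CD45RBhi minus CD45RBlo, so pair 3 ran the other way (paired adjusted p = 0.203). Trbv14 differed by -11.1, -1.23, -1.57 and 0.378 points (paired log2 ratio -0.45 ± 0.17, adjusted p = 0.147), so CD45RBhi was the lower in 3 of 4 pairs. Trbv31 differed by 6.57, -0.0025, 0.308 and 0.389 points (paired log2 ratio 0.59 ± 0.165, adjusted p = 0.0568), and the interval of pair 2 included 0. Trbv13-3 was higher in CD45RBhi in 4 of 4 pairs, by 0.0541 to 3.50 points (paired log2 ratio 0.19 ± 0.0734, adjusted p = 0.155). The interval of the difference left out 0 for 13 or 14 of 35 V segments in each pair and for 2 to 4 of 14 J segments. Of the 35 V rows, 8 had no count in any library. The intervals cover counting error only and J counts were far fewer than V counts, so V and J cannot be compared by these counts.

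**Figure D4:**
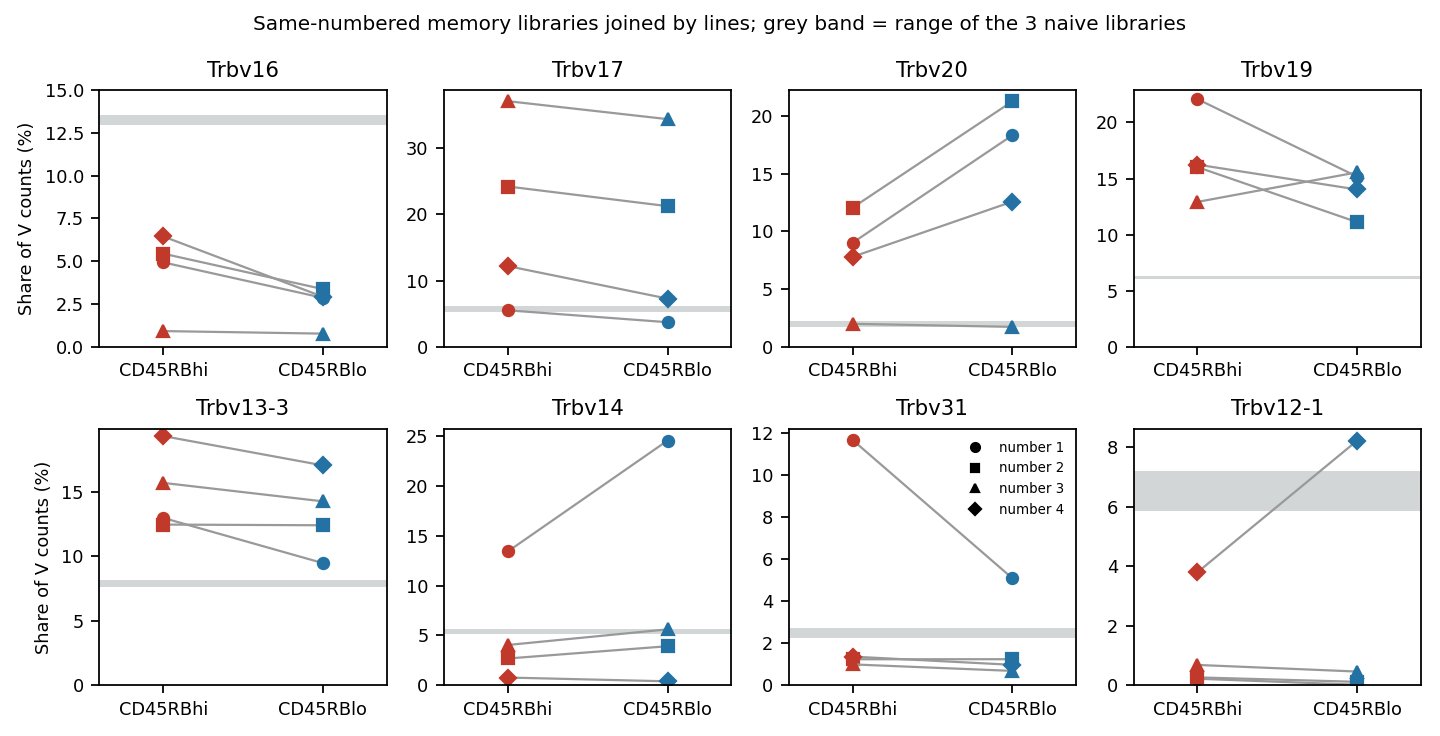
Share of V counts (%) of 8 V segments in CD45RBhi and CD45RBlo libraries, with same-numbered libraries joined by lines, a marker shape for each number and a grey band for the range of the 3 naive libraries. Trbv16 and Trbv17 are higher in CD45RBhi in 4 of 4 pairs and Trbv20 is lower in 3 of 4.

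J segments supply the end of CDR3 and the motif phenylalanine, glycine, any residue, glycine that follows it. The germline sequences of some of the J segments named below are shown whole, with the codons of that motif in capitals. Trbj1-7 and Trbj2-6 are given in lower case because no such motif was found in them.
Trbj1-1 (chr6:41533864-41533911, plus strand): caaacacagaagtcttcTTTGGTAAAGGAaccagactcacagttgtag
Trbj1-4 (chr6:41534811-41534861, plus strand): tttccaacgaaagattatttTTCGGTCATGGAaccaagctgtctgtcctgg
Trbj1-5 (chr6:41535084-41535133, plus strand): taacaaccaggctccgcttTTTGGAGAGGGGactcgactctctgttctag
Trbj2-1 (chr6:41542754-41542803, plus strand): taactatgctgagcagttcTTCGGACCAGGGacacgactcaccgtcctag
Trbj2-7 (chr6:41543810-41543856, plus strand): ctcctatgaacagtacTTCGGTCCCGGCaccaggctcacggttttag
Trbj1-7 (chr6:41535642-41535687, plus strand): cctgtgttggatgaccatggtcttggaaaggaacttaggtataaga
Trbj2-6 (chr6:41543598-41543645, plus strand): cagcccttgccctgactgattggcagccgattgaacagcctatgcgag

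J counts were spread over most J segments in every group. Trbj1-7 and Trbj2-6, in which no motif was found, together held 15.8% to 19.8% of J counts in a library. J counts therefore need not stand for J segments in functional receptors. How far the J measures below reflect such receptors was not tested. The effective number of J segments was 12.6 ± 0.265 in CD45RBhi, 12.4 ± 0.619 in CD45RBlo and 12.7 ± 0.289 in naive libraries (SD, n = 4, 4 and 3), and the ranges overlapped. Of 14 J segments tested, 2 fell in CD45RBhi, and 2 fell and 1 rose in CD45RBlo, beside the 41.4% and 42.2% of all genes called. Trbj1-5 held 11.3%, 7.84%, 9.01% and 7.79% in CD45RBhi, 11.3%, 10.2%, 9.70% and 9.69% in CD45RBlo, and 12.9%, 14.1% and 14.8% in naive libraries. Every memory library lay below every naive one, with log2 ratios of -0.64 ± 0.17 in CD45RBhi (edgeR adjusted p = 0.00857) and -0.45 ± 0.168 in CD45RBlo (adjusted p = 0.0461). Trbj1-7 held 4.96% to 5.67% in CD45RBhi, 5.43% to 6.54% in CD45RBlo and 7.15% to 9.26% in naive libraries. It passed in CD45RBhi (-0.68 ± 0.183, adjusted p = 0.00955) and missed in CD45RBlo (-0.47 ± 0.181, adjusted p = 0.0535). Trbj1-4 held 4.50% to 8.50% in CD45RBhi, 5.18% to 6.20% in CD45RBlo and 8.22% to 10.8% in naive libraries, and passed in CD45RBlo (-0.72 ± 0.219, adjusted p = 0.0182). Trbj2-1 held 5.30% to 7.89%, 5.77% to 8.19% and 4.24% to 5.46% in CD45RBhi, CD45RBlo and naive libraries, and passed in CD45RBlo (0.59 ± 0.223, adjusted p = 0.0487).

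Some of these J calls were also lost when a single library was left out, again with the sign kept. Trbj1-5 in CD45RBlo was lost without CD45RBlo 2, 3 or 4 or any naive library (adjusted p = 0.0685 to 0.142), and Trbj1-4 without naive 3 (0.0814). Trbj2-1 was lost without CD45RBlo 1, 2 or 4 or any naive library (0.0588 to 0.152).

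Trbj1-1 varied most by library. It held 5.98%, 11.9%, 9.21% and 9.73% in CD45RBhi, 0.609%, 13.6%, 9.78% and 9.11% in CD45RBlo, and 4.62%, 5.03% and 4.78% in naive libraries. Every memory library except CD45RBlo 1 lay above the naive ones, and it did not pass (adjusted p = 0.201 in CD45RBhi and 0.27 in CD45RBlo). The other J segments without a call, Trbj1-2, Trbj1-3, Trbj1-6 and Trbj2-2 to Trbj2-5, held 1.55% (Trbj2-4 in CD45RBlo 2) to 14.2% (Trbj1-6 in CD45RBlo 4). Trbj2-7 held 11.3% to 14.9% in CD45RBhi, 9.71% to 14.2% in CD45RBlo and 9.32% to 13.9% in naive libraries. Trbj2-6, annotated as a pseudogene, held 10.3% to 14.6% in CD45RBhi, 9.55% to 11.9% in CD45RBlo and 9.66% to 10.5% in naive libraries. V pseudogenes, in contrast, held 0.0292% to 0.177%, 0.0299% to 0.155% and 0.193% to 0.293% of V counts in those groups. J distances between same-numbered CD45RBhi and CD45RBlo libraries averaged 10.8% ± 2.75, those between differently numbered ones 13.8%, and the nearest library of the other sort carried the own number for 4 of 8 memory libraries.

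The J segments lie in 2 clusters, each followed by its own constant gene, Trbc1 or Trbc2. The second cluster held 47.3% ± 2.91 of J counts in CD45RBhi, 44.1% ± 5.23 in CD45RBlo and 42.0% ± 3.87 in naive libraries. Trbc2 held 67.6% ± 4.54, 63.2% ± 4.72 and 67.7% ± 0.705 of the counts of both constant genes in CD45RBhi, CD45RBlo and naive libraries. The groups overlapped in both measures.

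J counts were scarce relative to V counts in memory. There were 4.27 to 5.83 J counts per 100 V counts in CD45RBhi, 5.65 to 8.74 in CD45RBlo and 10.9 to 11.7 in naive libraries, with no overlap between memory and naive. J counts summed to 43.0 ± 9.64 CPM in CD45RBhi, 54.6 ± 12.5 CPM in CD45RBlo and 78.9 ± 3.21 CPM in naive libraries, while V counts summed to 846 ± 159, 777 ± 154 and 693 ± 18.3 CPM. On the scale of levels, with TMM for every row, 7 of 14 J segments were called in CD45RBhi against naive, all lower, beside 41.5% of all genes, and 5 of 14 in CD45RBlo, all lower, beside 42.2%. The lowest log2 level differences were those of Trbj1-5 (-1.55 ± 0.189, edgeR adjusted p = 3e-05) and Trbj1-7 (-1.55 ± 0.256, adjusted p = 0.000356) in CD45RBhi. On this scale Trbj2-1 in CD45RBlo was at 0.04 ± 0.283 (adjusted p = 0.923), so its higher share went with a level close to naive.

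**Figure D5:**
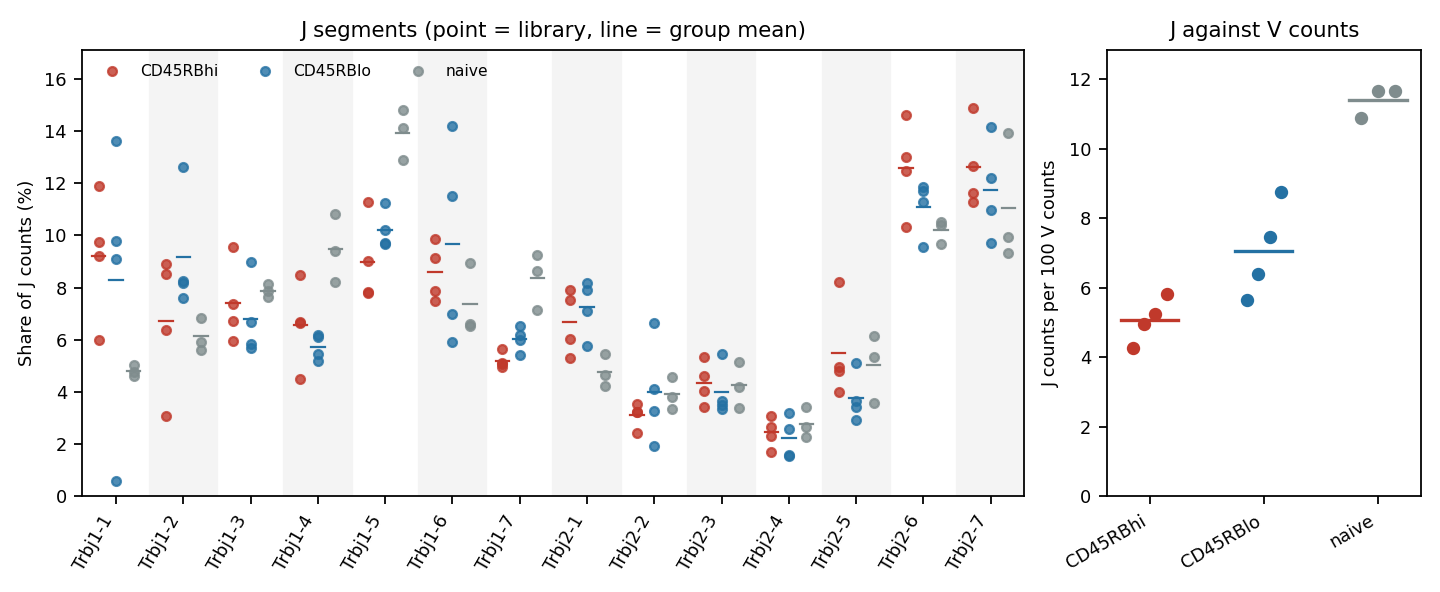
Left, share of J counts (%) of the 14 J segments by group, with each point a library and lines for group means; right, J counts per 100 V counts in each library. The shares overlap between groups for most J segments, while all memory libraries (4.27 to 8.74 J counts per 100 V counts) lie below all naive ones (10.9 to 11.7).

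The D segments are 12 and 14 bases long in the germline (Trbd1 and Trbd2) and gave few counts. Neither Trbd1 nor Trbd2 passed in any comparison (edgeR adjusted p = 0.381 to 0.97).

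Other genes of receptor assembly and display were followed on the scale of levels (13 genes). The constant genes Trbc1, Trbc2 and Trac and the CD3 complex members Cd3g and Cd247 passed in none of the 3 comparisons. Trbc2 averaged 1051 ± 151 CPM in CD45RBhi, 971 ± 172 CPM in CD45RBlo and 986 ± 55.2 CPM in naive libraries. Cd8a, a chain of the coreceptor, fell to 986 ± 56.9 CPM in CD45RBhi and 980 ± 70.6 CPM in CD45RBlo, against 1323 ± 89.1 CPM in naive libraries (log2 ratio -0.43 in both, adjusted p = 0.000828 and 0.000686). Its partner Cd8b1 (0.26, adjusted p = 0.00718) and the CD3 chains Cd3d (0.22, 0.0293) and Cd3e (0.23, 0.0362) rose in CD45RBhi. In CD45RBlo, Cd8b1 (0.11, adjusted p = 0.209), Cd3d (0.03, 0.758) and Cd3e (0.20, 0.0553) did not pass. The differences between the memory groups did not pass for Cd8b1 (0.15, adjusted p = 0.501), Cd3d (0.19, 0.43) or Cd3e (0.02, 0.949).

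Genes that build receptors in the thymus were at 0 in all memory libraries. Rag1 and Rag2, the recombinase that joins the segments, and Ptcra, the surrogate alpha chain of immature thymocytes, had 0 counts in all 11 libraries, which allows up to 3 counts in each. Dntt, which encodes the enzyme that adds untemplated bases at the joints, had 0 counts in all 8 memory libraries and 333, 235 and 341 counts in naive libraries (14.7 ± 2.34 CPM, n = 3). With the floor of 3 counts over a whole group, Dntt was at least 404-fold lower in CD45RBhi and at least 387-fold lower in CD45RBlo than in naive libraries (edgeR adjusted p = 3.81e-06 and 3.59e-06).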

How the data were processed

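RNA sequencing of 11 libraries was used. The authors deposited raw counts per Ensembl gene, which are not normalized. Per the submitters' processing notes, SAMtools, featureCounts and DESeq2 were used with mm10 and GRCm38. Not given in the sources used here are the aligner, the annotation release, strandedness and how reads over several genes were treated. Segments are short and are spliced or rearranged next to others, so their counts may depend on these settings. Counts were filtered with edgeR's filterByExpr (minimum count 10), leaving 13735 genes and 38 of 51 segments (22 V, 14 J, 2 D). All libraries entered 1 quasi-likelihood fit without covariates (two-sided, Benjamini-Hochberg over all genes, threshold 0.05). TMM scaled every row except V and J segments, whose offset was the library's V or J total, so that coefficients are log2 ratios of shares; CPM of segments and receptor genes are on TMM-scaled totals, those of cell type markers on plain totals. The fit was tested on simulated data.

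V segments were named if they held 5% or more of V counts in any library or passed a test; all J and D rows were described. Members and lists were chosen with earlier results of these data known. Scores over segments got no p-value. Replicate numbers pair memory libraries by the data, not the labels: same-numbered deviations correlated at 0.24 to 0.58 across genes, above the limit of 0.1 in every pair, so a fit restricted to memory, with the number as a block, stands beside the unpaired one. Memory and naive libraries were not taken as pairs. Alternatives were other scalings, no filter, DESeq2, only the groups compared, single libraries left out, thinning, functional segments only and per-base shares. Positions and sequences came from GENCODE M21 (GRCm38), which need not be the annotation counted on. Tools were R 4.3.3, edgeR 4.0.16, limma 3.58.1, DESeq2 1.42.0, Python 3.11.15, numpy 2.4.6, pandas 2.3.3, scipy 1.17.1, Biopython 1.88 and matplotlib 3.10.9.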

Additional observations from a re-analysis of the deposited data

Results flagged for a closer look

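In groups of 4 memory libraries, 8 of 74 group values held a library far from the others by Dixon's criterion for 4 values. Chance reaches this criterion in about 1 in 20 groups of independent, normally distributed values. Shares add up to a fixed total and same-numbered libraries resembled each other, so 8 of 74 cannot be set against that rate. Trbv31 was at 11.7% of V counts in CD45RBhi 1 (others 0.990% to 1.36%) and at 5.09% in CD45RBlo 1 (others 0.682% to 1.24%). Trbv12-1 was at 3.80% in CD45RBhi 4 (others 0.219% to 0.683%) and at 8.22% in CD45RBlo 4 (others 0.0172% to 0.461%). In both segments the library that stood apart carried the same number in the 2 sorts. Trbv3 was at 1.56% in CD45RBhi 2 (the others were at 0.949% or just above), and Trbv23 at 0.146% in CD45RBlo 2 (others 0% to 0.0180%). Among J segments, Trbj1-2 was at 12.6% of J counts in CD45RBlo 1 (others 7.59% to 8.25%) and Trbj2-3 at 5.45% in CD45RBlo 3 (others 3.35% to 3.65%).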

How the results depend on the processing

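Most values kept their direction and their side of the threshold. Of the log2 ratios of named segments under alternatives, 402 did so, 55 lost the threshold, 13 gained it and 3 turned sign. Between CD45RBhi and CD45RBlo, 0 segments passed without pairing; with the replicate block 3 did, with the block and TMM for every row (chosen after seeing the data) 5, and with the block less 1 number 2 to 4. The sign turned for Trbv17, unpaired, without CD45RBhi replicate 3 (-0.25), CD45RBlo replicate 1 (-0.08) or CD45RBlo replicate 4 (-0.00268), within a range of -0.25 to 0.87. Against naive, 15 segments were called in CD45RBhi (11 to 17 when single libraries were left out) and 17 in CD45RBlo (12 to 19). The counts were 17 and 19 with the replicate block, under which Trbv20 (adjusted p = 0.0531), Trbj1-5 (0.109) and Trbj1-7 (0.108) in CD45RBhi and Trbj1-5 (0.158) and Trbj2-1 (0.187) in CD45RBlo were lost, although same-numbered memory and naive deviations correlated at -0.19 to 0.07, so these numbers were not taken as pairs. Over all genes, CD45RBhi against CD45RBlo gave 17 calls, 154 with DESeq2, 4 with only those 2 groups, 703 with the block and 6 to 15 without single libraries. With TMM for every row, Trbv4 in CD45RBhi (adjusted p = 0.101) and Trbv23 in CD45RBhi (0.0524) and CD45RBlo (0.0577) no longer passed; DESeq2 also lost Trbv23 (0.132 and 0.157). With only the 2 groups compared, Trbv4 in CD45RBhi (0.0532) and Trbj2-1 in CD45RBlo (0.0568) were lost. Without the filter, Trbj1-5 (0.13) and Trbj2-1 (0.124) in CD45RBlo were lost. By the inverse Simpson index the effective number of V segments was 6.70 in CD45RBhi, 6.62 in CD45RBlo and 13.7 in naive libraries, and that of J segments 11.6, 11.4 and 11.7. In naive libraries the V number was 15.5 over functional segments and 15.5 per base. Functional J segments here are those annotated so, which keeps Trbj1-7 and leaves out Trbj2-6. Over functional J segments the effective number was 11.8, 11.5 and 11.7 in CD45RBhi, CD45RBlo and naive libraries. The share of the second cluster over them was 39.7%, 37.2% and 35.4% in those groups. By J shares the nearest library carried the own number for 5 of 8 over functional segments and 3 of 8 thinned, against 4. The cause was not tested. J shares are limited by 585 to 1674 counts a library.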
